A study of Mus musculus with 5 samples.

Results

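DNA damage sensing and repair genes were read in endothelial cells of the mouse thymus, 37 named genes in all, grouped by the pathway in which their products act. A gene was a member because its symbol was on this list, and the list was chosen with earlier results of these data known. Of the 37, 35 had a probe set that names only them, with 58 probe sets together out of the 22626 on the array that are not controls. The expression of Fancd2 and Lig4 was not analysed here. Of the 35 genes, 31 had a probe set past the level filter, a log2 signal above 4 on at least 2 of the 5 arrays, and entered the tests among 8940 genes. All cells came from female C57BL/6J mice of 6 to 8 weeks. Untreated mice (day 0) gave 3 arrays. The other 2 came from mice at day 4 after whole-body irradiation at a sublethal 550 cGy from a cesium source, with no hematopoietic rescue. Both groups were depleted of CD45-positive cells and sorted as CD45- EpCAM- VE-Cad+ cells, and RNA of several mice was pooled for each array. The labels call the day 4 cells CD45- thymic stromal cells and the day 0 cells thymic endothelial cells.

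Ionising radiation breaks DNA strands and damages bases, and cells answer in layers. Kinases such as ATM and ATR sense the break and stop the cycle, and separate pathways mend bulky adducts, damaged bases, mispaired bases and broken ends. Homologous recombination copies from the sister chromatid and so belongs to cells that replicate, while end joining works through the whole cycle. Much of this machinery is held ready as protein and regulated after translation. But a few repair genes, among them Ddb2, Xpc, Polk, Rrm2b and Ercc5, are known as transcriptional targets of p53. Whether p53 acts on each of them in these mouse cells was not tested.

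Of 16 measured endothelial genes, such as Cdh5, 0 differed between the groups by limma and 1 had an unadjusted p under 0.05; their mean log2 level was 10.01 to 10.33 over the 5 arrays. Markers of other cells were also present and moved with the groups. Of 11 measured thymocyte genes 6 were lower at day 4, and the mean log2 level of the list was 5.77 to 6.52 at day 0 and 4.25 to 4.37 at day 4. Of 8 measured genes of cycling cells 6 were lower, with a mean level of 5.42 to 5.94 at day 0 and 3.94 to 4.18 at day 4. Of 15 myeloid genes 4 were higher and 2 lower, at 5.97 to 6.79 and then 7.41 to 7.55. Of 3 measured B cell genes 2 were lower, Cd79b and Ms4a1, and so was the erythroid gene Alas2, by a log2 change of -2.58 (limma adjusted p = 0.000830). All 3 were above the level filter on the day 0 arrays alone. The same held for the called genes Rag1, Cd8b1, Ccr9, Ube2c, Birc5, S100a8 and S100a9. Cd163, called higher, was above the filter on the day 4 arrays alone. The calls of all these genes are given as a description and add no support. Of 8 measured genes each of epithelial cells, fibroblasts and pericytes 0 passed (limma), and 2, 1 and 1 had an unadjusted p under 0.05. The thymocyte, cycling and myeloid counts changed when 1 array was left out. Without day 0 replicate 3, 0 thymocyte and 0 cycling genes were called lower and 0 myeloid genes higher. Without day 0 replicate 1 these counts were 6, 4 and 7, and without day 0 replicate 2 they were 9, 6 and 3. Counts without a day 4 array are not given, since 1 array is then left in that group. With array weights, which let limma trust some arrays less, it was 1 thymocyte gene, 1 cycling gene and 0 myeloid genes higher. That fit also ended the call of Mki67 (limma adjusted p = 0.0760). Without single arrays or with array weights, the median log2 change lay between -2.39 and -1.75 for the thymocyte list. It lay between -1.987 and -1.598 for the cycling list. With no level filter the medians were weaker, at -1.39 for the thymocyte list and -1.24 for the cycling list. With probe sets averaged per gene that of the cycling list was -1.57. The 3' minus 5' log2 signal of the actin control, a sign of RNA quality, was 1.43 to 1.65 at day 0 and 1.35 to 1.39 at day 4.

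At day 4 after irradiation most repair genes stood close to their untreated level. Of the 31 tested members, 1 was lower and 0 were higher at day 4 (limma, Benjamini-Hochberg adjusted p under 0.05 over all probe sets). The lower gene was Rad51ap1, which acts in homologous recombination. Over all 8940 genes, 1.68% passed, with 0.884% higher and 0.794% lower, and of all 15065 probe sets 1.39% passed. An unadjusted p under 0.05 was found for 7 of the 31 members, 3 higher and 4 lower, near the 20.1% of all genes. The median log2 change of the members was -0.066, beside -0.023 over all genes. The day 4 arrays lay above every day 0 array for 3 members and below for 6, and they overlapped for 22. Over all genes, 18.0% lay above and 23.0% below.

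The intervals show how large a change the arrays leave room for. For 28 of the 31 members the 95% confidence interval of the log2 change lay inside a 2-fold change either way, as it did for 91.8% of all genes. The other 3 were Rad51ap1, Polk and Ercc1. Polk at 1.85-fold and Ercc1 at 1.56-fold were not called, so the calls alone do not exclude changes of that size. The median interval reached 0.34 to either side of the estimate, equal to a 1.26-fold change. These intervals are not adjusted for the number of genes, and they rest on 5 arrays.

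**Figure D1:**
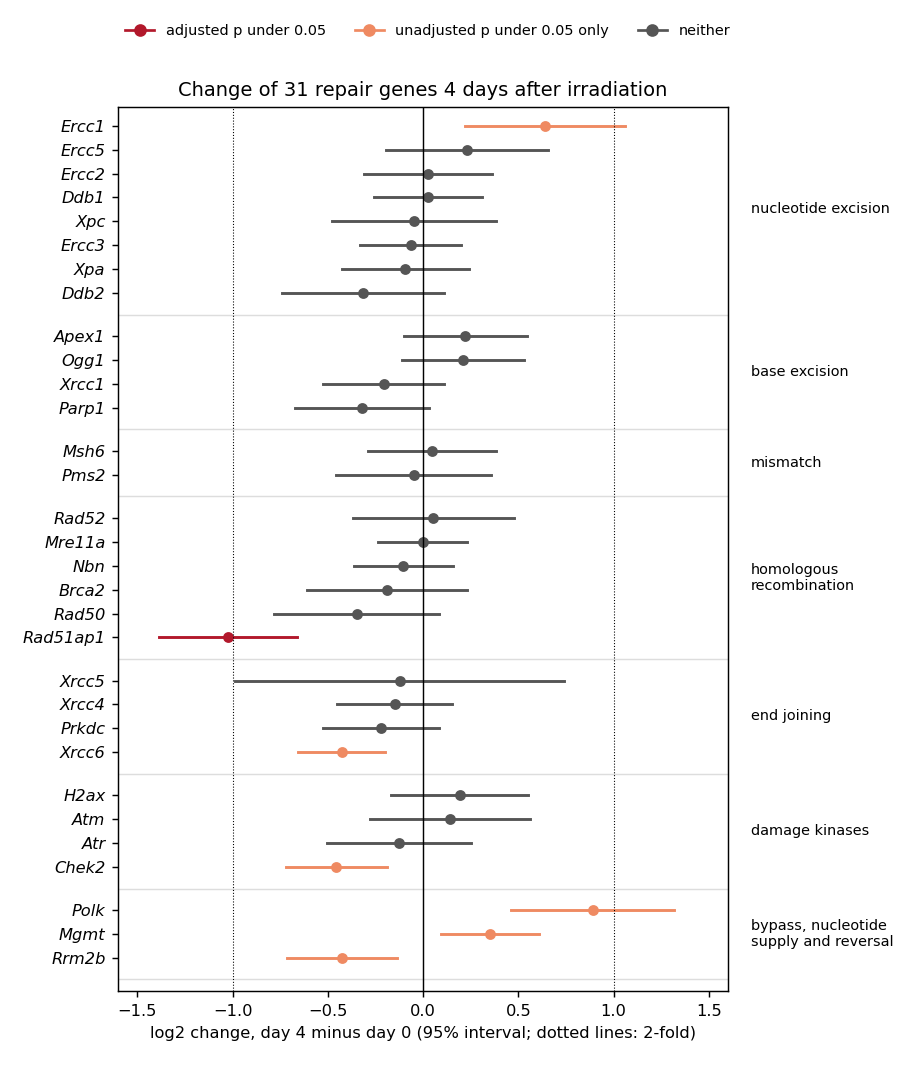
Log2 change (day 4 minus day 0) of each of the 31 tested repair genes on the horizontal axis, grouped by pathway, with points for the estimate and lines for the 95% interval from limma. Rad51ap1, at -1.02, is the 1 gene with an adjusted p under 0.05, and 28 intervals lie between the dotted lines that mark a 2-fold change.

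**Figure D2:**
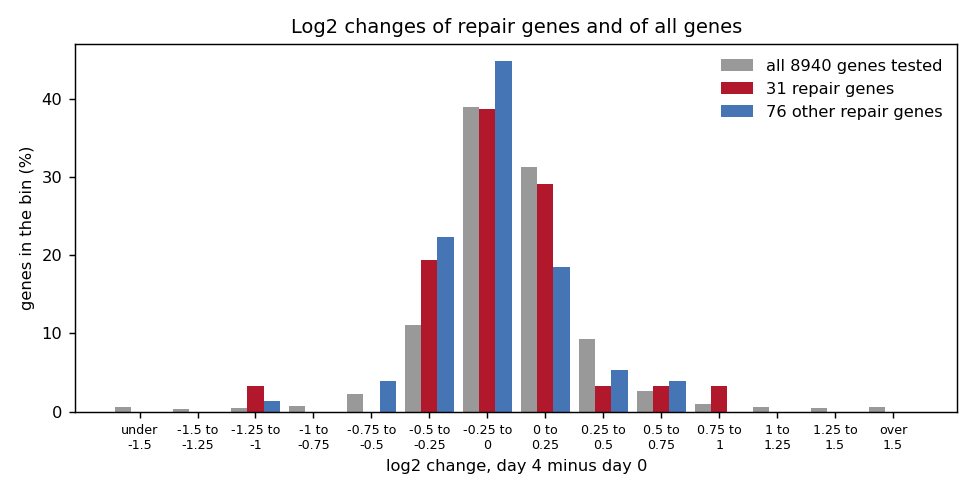
Percent of genes (vertical axis) in bins of log2 change, for all 8940 genes tested, the 31 members and 76 other repair genes. The medians are -0.023, -0.066 and -0.11.

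The damage kinases relay the break to the cell cycle. Chek2, which encodes the checkpoint kinase that ATM activates, had log2 signals of 7.84, 7.92 and 8.08 at day 0 and 7.47 and 7.51 at day 4. The day 4 arrays were close to each other and below all day 0 arrays. Its change was -0.46 ± 0.11 (SE), with an interval of -0.72 to -0.19, and missed the threshold (limma adjusted p = 0.111). H2ax, the histone variant that these kinases phosphorylate around breaks, stood at 7.66, 7.45 and 7.59 and then at 7.96 and 7.56. Its day 4 values overlapped the day 0 values, and its change of 0.19 (adjusted p = 0.511) was -0.011 without day 4 replicate 1. Atm, the kinase of double-strand breaks, differed by 0.14 (interval -0.28 to 0.56). Atr, the kinase of stalled forks, differed by -0.13 (interval -0.51 to 0.25). Chek1, the kinase downstream of ATR, had 4 probe sets, and none passed the level filter. Its brightest one lay between 3.67 and 3.95 on all arrays, so no change could be read for it.

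Nucleotide excision repair cuts out a short stretch of DNA around a bulky lesion. Among its 8 tested members 0 passed (limma), and 1 had an unadjusted p under 0.05. That gene was Ercc1, a subunit of the nuclease that cuts on the 5' side of the lesion. It stood at 8.89, 8.80 and 9.19 at day 0 and at 9.40 and 9.80 at day 4. The groups did not overlap, but day 0 replicate 3 was nearer to the lower day 4 array than the other two were. The change of 0.64 ± 0.17 (SE) had an adjusted p of 0.133 (limma) and ranged from 0.44 without day 4 replicate 2 to 0.84 without day 4 replicate 1. Ddb2 and Xpc encode the proteins that recognise the lesion. Ddb2 stood at 5.50, 5.83 and 5.84 and then at 5.19 and 5.62, a change of -0.32 (interval -0.74 to 0.11) at its brighter probe set. That change was -0.10 without day 4 replicate 1 and -0.53 without day 4 replicate 2, and the other tested probe set of the gene gave 0.10. Xpc stood at 5.79, 5.58 and 5.65 and then at 5.35 and 5.90, so that its day 4 arrays lay on either side of all day 0 arrays. Its change was -0.047 (interval -0.48 to 0.38). Ercc5, the nuclease that cuts on the 3' side, stood at 6.45, 6.68 and 6.74 and then at 6.61 and 7.10, a change of 0.23 (interval -0.20 to 0.65). The helicase genes Ercc2 and Ercc3 differed by 0.026 and -0.066. Ddb1, the partner of DDB2, differed by 0.025, and the scaffold gene Xpa by -0.093. All 8 genes of this pathway had a lower signal on day 4 replicate 1 than on day 4 replicate 2, by a median of 0.37. Of all genes, 56.0% did, and of the 31 members 21 did. Of the 16 endothelial marker genes 15 were also lower on that array (median -0.25), while the 8 measured epithelial genes had a median of 1.31 in the opposite direction. The part of these differences in the results was not tested.

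Base excision repair removes a damaged base and refills the gap. Among its 4 tested members 0 passed (limma), and 0 had an unadjusted p under 0.05. Apex1, which encodes the nuclease that cuts the abasic site, stood at 7.39, 7.29 and 7.21 at day 0 and at 7.68 and 7.35 at day 4. Day 4 replicate 1 was the highest array, and day 4 replicate 2 lay among the day 0 arrays. Its 3 tested probe sets gave changes of 0.22, 0.22 and 0.44, and none of the 3 was called. The set at 0.44 had an unadjusted p of 0.0306 (limma adjusted p = 0.211), with both day 4 arrays above all day 0 arrays. The brightest set, which stands for the gene in the counts, gave 0.053 without day 4 replicate 1 and 0.39 without day 4 replicate 2. Parp1, the sensor of strand breaks that marks proteins with ADP-ribose chains, stood at 6.14, 6.43 and 6.00 and then at 5.90 and 5.84. The day 4 arrays were the lowest at this probe set, with a change of -0.32 (adjusted p = 0.287) that was -0.20 without day 0 replicate 2, but its other 2 tested probe sets gave 0.059 and 0.018. The scaffold gene Xrcc1 differed by -0.21 and Ogg1, the glycosylase for oxidised guanine, by 0.21. Ung, the uracil glycosylase, passed the level filter on 1 array alone, at 4.04 on day 4 replicate 1, and was not tested. Mismatch repair, which mends copying errors, had 2 tested members. Msh6, part of the complex that finds the mispair, stood at 6.38, 6.63 and 6.25 and then at 6.41 and 6.53. Its change of 0.046 was -0.039 without day 0 replicate 3 and -0.016 without day 4 replicate 2. Pms2, part of the nuclease that follows, stood at 5.67, 5.71 and 5.62 and then at 5.35 and 5.89, a change of -0.049. Its day 4 arrays lay on either side of the day 0 arrays, and the change was 0.22 without day 4 replicate 1.

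Homologous recombination held the 1 called member. The main probe set of Rad51ap1 (1417938_at) had log2 signals of 5.76, 5.47 and 5.86 at day 0 and 4.77 and 4.57 at day 4, so that the groups were well apart. Rad51ap1 fell by 1.02 ± 0.15 (SE) on the log2 scale, from 5.70 ± 0.21 (SD, n = 3) to 4.67 ± 0.14 (SD, n = 2), to 0.491 of its day 0 signal (limma adjusted p = 0.0400). Another probe set (1448899_s_at) stood at 4.60, 4.51 and 4.58 and then at 3.81 and 3.43. It passed the level filter through the day 0 arrays alone, so its change of -0.94 is given as a description and adds no support. The remaining tested one (1417940_s_at) did not share this: it stood at 4.25, 4.77 and 4.75 and then at 4.70 and 4.68, a change of 0.10 (interval -0.33 to 0.53). One more, at 2.83, 2.94 and 3.39 and then 2.67 and 2.75, was below the filter on every array.

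The call of Rad51ap1 was close to the threshold and was lost in some fits that left out 1 array. Fits with fewer arrays also called fewer genes of any kind. Without day 0 replicates 1, 2 and 3 the calls over all genes were 89, 117 and 12, beside 150 with all arrays. A lost call therefore does not single out the array left out. Leaving out day 0 replicate 1 gave an adjusted p (limma) of 0.107, and leaving out day 0 replicate 3 gave 0.136. The fit lacking day 4 replicate 1 gave 0.138 and the one lacking day 4 replicate 2 gave 0.0821, while the one lacking day 0 replicate 2 gave 0.0368. With array weights it was 0.116. The change itself stayed between -1.14 and -0.93 in these fits, which read the main probe set. With the tested probe sets of the gene averaged, it was smaller, at -0.62 (limma adjusted p = 0.0475). Mki67, a marker of cycling cells, moved in the same direction, at 6.96, 6.21 and 6.91 at day 0 and 4.57 and 4.19 at day 4. So did Rag1, the recombinase of developing T cells, at 7.58, 6.51 and 7.25 and then 3.06 and 3.14. Rag1 passed the level filter through the day 0 arrays alone, so its change of -4.01 is given as a description and adds no support. Mki67 was called (limma adjusted p = 0.0212), but without day 0 replicate 3 its limma adjusted p was 0.0980. The change of Mki67 was -2.50 without day 4 replicate 1 and -2.13 without day 4 replicate 2. Whether the signal of Rad51ap1 came from the same cells was not tested, and fewer cells of a type cannot be told apart from less RNA per cell.

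**Figure D3:**
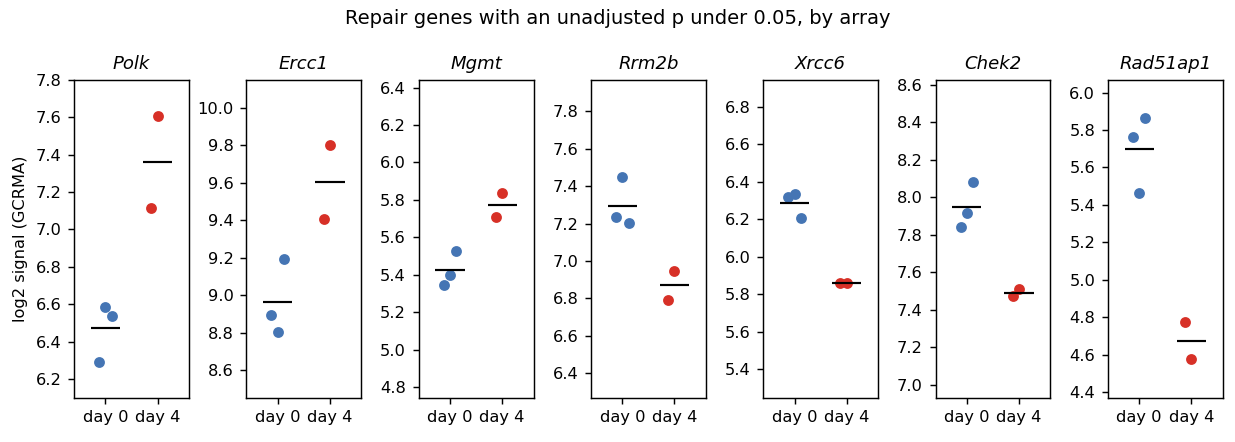
Log2 signal (vertical axes, each spanning the same range) of the 7 repair genes with an unadjusted p under 0.05, with blue points for the 3 day 0 arrays, red points for the 2 day 4 arrays and lines for the group means. The day 4 points lie apart from the day 0 points in every panel, above them for Polk, Ercc1 and Mgmt.

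The other tested recombination genes did not pass. Rad50, a subunit of the complex that binds broken ends, stood at 5.94, 5.72 and 5.82 and then at 5.20 and 5.75, a change of -0.35 (interval -0.78 to 0.086). Its day 4 replicate 2 lay among the day 0 arrays. Its partners in that complex, Nbn and Mre11a, differed by -0.10 and -0.0029, and the interval of Mre11a ran from -0.24 to 0.23. Brca2, a tumour suppressor of this pathway, differed by -0.19 (interval -0.61 to 0.23). Rad52, a strand annealing protein, stood at 4.38, 4.04 and 3.82 and then at 4.14 and 4.13, a change of 0.053 that was -0.079 without day 0 replicate 3. Brca1 and Rad54l, which act before and during strand exchange, were under the filter, and the brightest of their probe sets stood at 2.97 to 3.43 and at 3.57 to 4.02.

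The promoter windows of Rad51ap1, the member that fell, and of Chek2, the damage kinase with the lowest change, show the letters before each start site. Sequences are from RefSeq (GRCm38.p6), from 250 bases before to 50 bases after the start site, 5′ to 3′ on the gene's strand. Capitals mark matches, on both strands, to the CCAAT box (CCAAT), the E2F site (TTTCCCGC or TTTGGCGC), the CHR element (TTTGAA or TTCGAA) and the p53 half-site. The CCAAT box is a general promoter element, while E2F sites and CHR elements are known from genes of dividing cells and the p53 half-site from p53 targets. The Rad51ap1 window lies at chr6:126939538-126939837 on the minus strand and the Chek2 window at chr5:110839733-110840032 on the plus strand.
Rad51ap1: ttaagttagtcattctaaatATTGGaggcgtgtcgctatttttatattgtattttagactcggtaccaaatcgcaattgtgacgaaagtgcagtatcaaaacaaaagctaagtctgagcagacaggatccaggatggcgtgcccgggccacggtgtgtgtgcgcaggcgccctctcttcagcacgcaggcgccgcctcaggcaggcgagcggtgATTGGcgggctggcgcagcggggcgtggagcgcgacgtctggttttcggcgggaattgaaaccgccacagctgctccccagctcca
Chek2: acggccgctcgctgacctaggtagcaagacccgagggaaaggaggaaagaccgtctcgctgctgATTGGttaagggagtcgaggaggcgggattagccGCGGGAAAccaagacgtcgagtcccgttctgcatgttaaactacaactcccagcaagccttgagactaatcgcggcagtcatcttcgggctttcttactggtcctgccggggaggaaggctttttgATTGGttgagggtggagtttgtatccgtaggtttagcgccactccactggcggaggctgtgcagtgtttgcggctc

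The Rad51ap1 window held 2 CCAAT boxes, which begin 230 and 36 bases before the start site. The Chek2 window held 2 as well, at 186 and 26 bases before it, and 1 E2F site at 152 bases before it. The table held promoters for 28 members, 32 windows in all. Of these, 17 (53.1%) held a CCAAT box, 4 (12.5%) an E2F site and 3 (9.38%) a CHR element. Of all 32851 promoters, 37.4%, 1.56% and 19.2% did. A match describes letters and not binding.

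End joining ligates broken ends without a template. Among its 4 tested members 0 passed (limma), and 1 had an unadjusted p under 0.05. Xrcc6, which encodes the Ku70 subunit of the ring that caps a broken end, stood at 6.32, 6.33 and 6.21 at day 0 and at 5.86 and 5.86 at day 4. The day 4 arrays were alike and lay under all day 0 arrays. The change was -0.43 ± 0.094 (SE), with an interval of -0.66 to -0.20 and an adjusted p of 0.0943 (limma). Xrcc5, the Ku80 subunit, stood at 4.08, 4.20 and 3.41 and then at 4.28 and 3.28. It lay close to the level filter and was spread widely in both groups, so its interval of -0.99 to 0.74 was the broadest of the members. Its change of -0.12 was 0.029 without day 0 replicate 2 and 0.38 without day 4 replicate 2. Prkdc, the catalytic kinase that Ku recruits, differed by -0.22 and Xrcc4, the partner of the ligase, by -0.15. All 4 values of the tested genes were below 0, as were 4858 of the 8940 values over all genes.

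Polk, Rrm2b and Mgmt act outside these pathways. Polk encodes a polymerase that copies past damaged bases, and it had the largest positive change of the 31 members. Its brighter probe set (1449483_at) stood at 6.29, 6.58 and 6.54 at day 0 and at 7.12 and 7.61 at day 4. Again the groups did not overlap, and day 4 replicate 2 was the higher one. The change of 0.89 ± 0.18 (SE), or 1.85-fold with an interval of 1.38-fold to 2.49-fold, did not pass (limma adjusted p = 0.0792). Its other probe set (1419501_at) had the same order of groups, at 4.25, 4.65 and 4.43 and then 4.93 and 5.03, a change of 0.54 ± 0.14 (SE) that missed the threshold as well (limma adjusted p = 0.126). Without single arrays the change of the brighter one lay between 0.64 and 1.14.

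Polk has 2 start sites in the RefSeq table (GRCm38.p6), and both windows are shown because the p53 half-site was found in 1 of them. They lie on the minus strand at chr13:96542530-96542829 and chr13:96519138-96519437, and capitals mark the p53 half-site alone, which begins 231 bases before the second start site.
Polk, first start site: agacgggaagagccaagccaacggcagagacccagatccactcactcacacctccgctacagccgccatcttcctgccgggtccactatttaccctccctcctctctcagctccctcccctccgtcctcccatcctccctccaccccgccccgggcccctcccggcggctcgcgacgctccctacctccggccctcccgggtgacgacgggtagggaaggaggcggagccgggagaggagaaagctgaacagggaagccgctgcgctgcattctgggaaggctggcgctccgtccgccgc
Polk, second start site: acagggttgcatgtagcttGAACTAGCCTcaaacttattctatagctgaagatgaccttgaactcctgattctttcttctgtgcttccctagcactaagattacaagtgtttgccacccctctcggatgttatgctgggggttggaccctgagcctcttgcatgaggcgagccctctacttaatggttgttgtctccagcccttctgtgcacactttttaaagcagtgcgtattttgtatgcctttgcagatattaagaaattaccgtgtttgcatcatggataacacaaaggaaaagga

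This was the 1 window of the members' 32 (3.12%) with a p53 half-site, beside 8.36% of all promoters. There was no window for 9 members, among them Ddb2, Xpc and Rrm2b, so their promoters were not searched. No match says only that these letters are not in the window. The arrays do not tell which start site was used.

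Rrm2b encodes the p53-induced subunit of ribonucleotide reductase, which supplies nucleotides for repair in cells that do not divide. It stood at 7.23, 7.45 and 7.20 at day 0 and at 6.79 and 6.95 at day 4. Every day 4 value lay under every day 0 value. The change of -0.42 ± 0.12 (SE) did not pass (limma adjusted p = 0.142), and its interval of -0.71 to -0.13 lay below 0. Mgmt, which strips alkyl groups from guanine, stood at 5.35, 5.40 and 5.53 and then at 5.71 and 5.84, above all day 0 arrays. Its change was 0.35 ± 0.10 (SE) and missed the threshold (limma adjusted p = 0.160).

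The repair genes known as p53 targets can be set beside p53 targets of arrest and feedback on the same arrays, a comparison chosen with the values known. Cdkn1a, the cycle inhibitor p21, rose by 1.03 on the log2 scale (limma adjusted p = 0.0132). The cyclin G1 gene Ccng1 rose by 1.82 (limma adjusted p = 0.00367). Phlda3, an inhibitor of Akt, rose by 2.39 (limma adjusted p = 0.000830). Mdm2, the ligase that degrades p53, rose by 1.30 (limma adjusted p = 0.0486). Without single arrays Ccng1 and Phlda3 passed in every fit. The limma adjusted p of Cdkn1a was 0.0621 without day 0 replicate 3 and 0.0950 without day 4 replicate 1. That of Mdm2 was 0.110 to 0.162 without any array but day 4 replicate 2, where it was 0.0286, and it was 0.0524 with median centring and 0.0760 with array weights. On those arrays the repair targets Polk, Ercc5, Xpc, Ddb2 and Rrm2b had changes of 0.89, 0.23, -0.047, -0.32 and -0.42, and none passed. The upper ends of their intervals were 1.32, 0.65, 0.38, 0.11 and -0.13 in that order, and that of the other Ddb2 probe set was 0.50. The end for Polk lay above the changes of Cdkn1a and Mdm2, and the others lay under that of Cdkn1a. Those changes had intervals of their own, 0.80 to 1.26 for Cdkn1a and 0.80 to 1.80 for Mdm2. Differences between genes were not tested.

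**Figure D4:**
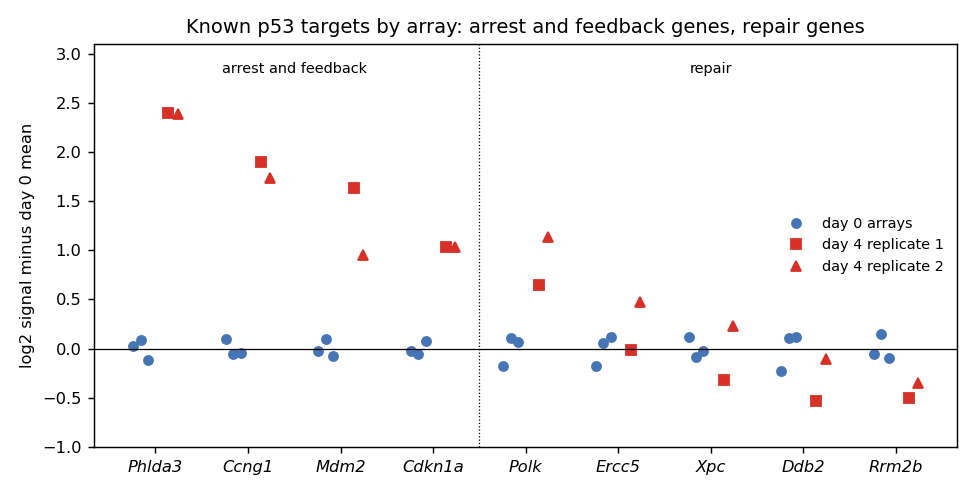
Log2 signal minus the day 0 mean (vertical axis) of 4 p53 targets of arrest and feedback and 5 repair genes known as p53 targets, with circles for the day 0 arrays and squares and triangles for day 4 replicates 1 and 2. Both day 4 arrays stand above the day 0 arrays for the 4 arrest and feedback genes and for Polk, and below them for Rrm2b.

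**Figure D5:**
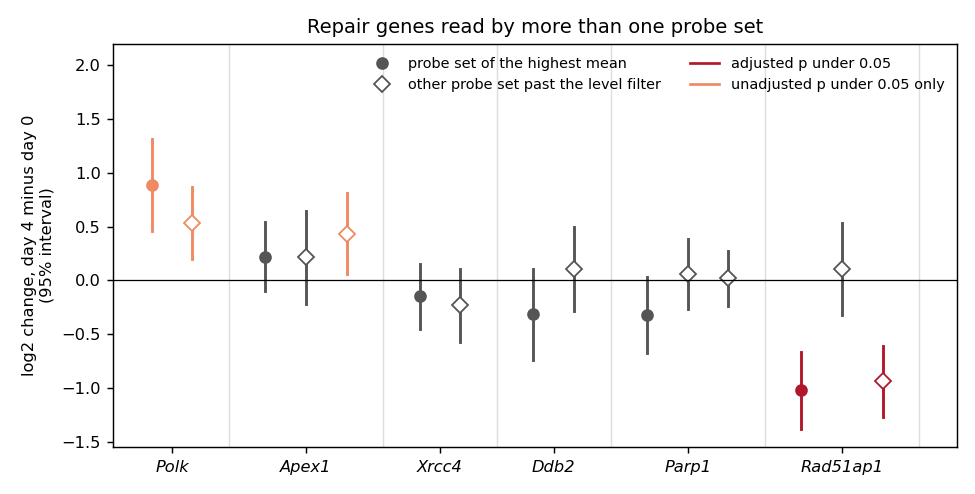
Log2 change with 95% interval (vertical axis) of every tested probe set of the 6 members with over 1 such set, with filled circles for the brightest set and open diamonds for the others. The sets share a sign for Polk, Apex1 and Xrcc4, and differ in sign for Ddb2, Parp1 and Rad51ap1.

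Other genes of the same pathways were read as well. Of 124 listed, 89 had a probe set of their own and 76 were tested. In either direction 0 were called by limma, and 16 had an unadjusted p under 0.05, 5 higher and 11 lower, a share (21.1%) near the 20.1% of all genes. Their median log2 change was -0.11, and 55 of the 76 values were below 0, beside 19 of 31 for the members and 4858 of 8940 for all genes. In nucleotide excision 7 of 16 had an unadjusted p under 0.05, and 5 of these were lower, whereas the 1 of 8 among the members was higher. The lower ones were Cetn2, Gtf2h4, Rpa1, Rpa3 and Lig1, and the higher ones Rad23b and Gtf2h1. In homologous recombination 2 of 20 had one, both lower, and in base excision 0 of 11 had one. Of the damage kinases and their partners it was 3 of 12, and of bypass and nucleotide supply 4 of 11. No gene of mismatch repair (2 tested) or end joining (4 tested) had one.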

How the data were processed

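The deposited table held log2 values, 1 per probe set and array, which the authors made with GCRMA according to the submitters' processing notes. The sources used here do not state its version or which arrays were normalized as a set. The log2 scale was read from the values, 1.57 to 14.4. GCRMA corrects background, normalizes arrays to a common distribution and so hides a shift shared by most genes, and low values are uncertain. Of 22626 non-control probe sets, 20380 had 1 gene symbol in the platform annotation.

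Probe sets with a value above 4 on at least 2 arrays, 15065 in all, were fitted together in limma 3.58.1 (lmFit, then eBayes; R version 4.3.3), two-sided, with no covariate. P-values were adjusted over all of them by Benjamini-Hochberg. A gene was represented by its brightest probe set and called at an adjusted p under 0.05. The log2 change is day 4 minus day 0. The fit had 3 residual degrees of freedom, and the small number of arrays limits the precision. Arrays are pools, so p-values measure the spread between pools, which may be partly technical.

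The members and lists were chosen with earlier results of these data known. Each called member, the largest positive and negative change of each pathway, and members with probe sets of opposite sign of which 1 was called are given on every array. The fit was also run on simulated arrays with independent noise and added changes larger than those of most members. These had no shift shared by a whole array, so the run does not speak to such shifts or to small changes. Alternatives were other normalizations, level filters, gene summaries, variance models, array weights, a replicate block, thresholds, and leaving out each array. The plots used matplotlib 3.10.9 under Python 3.11.15.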

Additional observations from a re-analysis of the deposited data

How the results depend on the processing

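Rad51ap1 was the 1 lower member in 6 of the 8 other fits that used all arrays. No member was lower with a level filter at 6, which removes Rad51ap1 from the tests, or with array weights (0 each), and 0 to 1 were lower without single arrays. At an adjusted p under 0.01 no member was lower (0), and at 0.1 there were 2 lower and 1 higher. With the replicate number as a block (replicate block), Rad51ap1 was again lower and 1 member was higher, Polk, at 0.92 with a limma adjusted p of 0.0326, and 1 other repair gene was lower, Rrm2. Day 0 replicate 3 has no partner in that fit and so takes no part in its changes, which equal those without this array; the block therefore makes 2 choices at once. The block is no more than a shared number here: deviations from the group means correlated at 0.196 for replicate 1 and 0.0843 for replicate 2, and the labels do not tie the numbers. The block raised the calls over all genes from 150 to 273. They were 255 with 1 probe set per gene in the fit, 239 with probe sets averaged per gene, 226 with an intensity trend and robust fitting, 37 with array weights and 6 to 117 without single arrays. Among other repair genes 1 was lower with 1 probe set per gene (Cetn2), and 1 was higher (Timeless) and 1 lower (Cetn2) with the trend. At an adjusted p under 0.1, 1 was higher and 3 were lower. The members' median lay between -0.15 and 0.037 without single arrays, the lowest without day 4 replicate 2 and the highest without day 4 replicate 1. With the block, Msh6 was at -0.039 and Rad52 at -0.079, both opposite in sign to the main value. Without single arrays Msh6 ranged from -0.039 to 0.15, Pms2 from -0.32 to 0.22, Rad52 from -0.079 to 0.21, Xrcc5 from -0.62 to 0.38 and H2ax from -0.011 to 0.39. The cause of these moves was not tested.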

Other observations

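Probe sets that carry the symbols of several genes took no part in the counts above. A set of this kind, shared by Atrip, the partner of the ATR kinase, and Trex1, an exonuclease, had a mean log2 signal of 7.71 ± 0.023 (SD, n = 3) in the untreated group. The irradiated group stood at 8.34 ± 0.39 (SD, n = 2). Both day 4 arrays lay above the day 0 arrays, and the interval of its change of 0.63 ran from 0.21 to 1.05, but it did not pass (limma adjusted p = 0.134). Of all genes, 18.0% lay above in this way. The set does not tell from which of these genes the signal came. The 3 probe sets shared by Tdg, the thymine glycosylase, and its pseudogenes had changes of -0.14, -0.24 and -0.12, with both day 4 arrays below the day 0 arrays in each, as for 23.0% of all genes. None of the 3 passed (limma adjusted p = 0.455, 0.336 and 0.525), and all their intervals included 0.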
